A study of Mus musculus with 4 samples.

Results

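The transcripts described here are 45 mouse genes of macrophages and of leukocytes in general, measured in primary embryonic fibroblasts with and without Exportin-5. They form a list of named genes, drawn up with earlier results of these data known, and all 45 had a probe on the array, out of 19886 genes with a probe. The cells were wild type primary fibroblasts of C57BL/6 mouse embryos, which received 60 nM of a negative control siRNA or of an siRNA against Exportin-5 (gene Xpo5), the factor that carries precursor microRNAs out of the nucleus. After 12 h the cells of both groups were starved in 0.2% fetal calf serum for 48 h. They were then fed with 20% serum for 24 h, with a second dose of the same siRNA, before their RNA was taken. Such refeeding serves to bring cells back into the cell cycle, and whether either group re-entered it was not tested here. The series names 2 independent experiments, and the replicate numbers of the labels are read here as experiment 1 and experiment 2, with 1 array for each siRNA in each experiment. No untransfected cells were among the 4 samples, an siRNA lowers its target without removing it, and the labels describe no step that selects or removes leukocytes.

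Macrophages are resident phagocytes of nearly every tissue and are present in the embryo. Their identity rests on the receptor for colony-stimulating factor 1 and on the transcription factor PU.1, and their work is to bind, engulf and digest particles. Surface receptors recognise antibody, complement and microbial sugars, adaptor chains with ITAM motifs pass these signals on, lysozyme and cathepsins digest what is taken up, and the NADPH oxidase produces superoxide against it. The pan-leukocyte genes in the set, such as the one for the common leukocyte phosphatase Ptprc, are transcribed in nearly all white blood cells and are used to tell them from fibroblasts.

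Values are log2 processed signals relative to the 75th percentile of the same array, so that 0 is the level of a fairly bright spot. A probe's value can be compared between arrays but not with that of another probe. Of the 45 members, 40 passed the filter, which asked that a probe be well above background on both arrays of 1 siRNA group or of each, and 39 were well above background on all 4 arrays. Between 62.4% and 65.0% of the spots of each array were well above background, and 0 were saturated. The number of arrays, 2 in each group, limits the precision of every value, and the smallest exact permutation p that such groups allow is 0.333. The labels do not say that the experiments used different embryos, so the p values speak of the spread among these 4 samples only.

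Xpo5 itself read 1.22 and 1.17 on the control arrays of experiments 1 and 2 and -2.03 and -2.02 on the Xpo5 siRNA arrays, a difference of -3.21 ± 0.12 (SE from 2 arrays in each group, limma adjusted p = 0.0109). All 14 fibroblast genes on the list for the labelled cell type were well above background on all 4 arrays. Dcn, the gene of the matrix proteoglycan decorin, read 5.60 and 5.23 on the control arrays and 5.94 and 5.60 on the Xpo5 siRNA arrays.

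The sequences that read some of the members are shown because the place of a probe in its transcript bears on a later result. Each probe has 60 bases, printed in the sense of the transcript. The C1qa probe lies at chr4:136452409-136452468 on mm9, the build named in the file headers. Those for Tyrobp and Spi1 have coordinates that span 1728 and 13788 bases of the genome (chr7:31200651-31202378 and chr2:90939665-90953452), more than their own length, so that they join sequence from more than 1 exon. For Coro1a and Vav1 the probe nearer the 3' end and that nearer the 5' end are both given, because they differ in the results. The Coro1a pair lies at chr7:133843425-133843484 and chr7:133844338-133844397 on the reverse strand, and the Vav1 pair at chr17:57464127-57464186 and chr17:57451288-57454690 on the forward strand.
C1qa: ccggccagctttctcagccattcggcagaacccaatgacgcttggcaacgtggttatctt
Tyrobp: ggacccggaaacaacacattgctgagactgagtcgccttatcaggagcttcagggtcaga
Spi1: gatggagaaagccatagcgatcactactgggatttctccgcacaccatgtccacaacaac
Coro1a, 3' probe: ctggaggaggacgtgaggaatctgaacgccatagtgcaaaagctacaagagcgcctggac
Coro1a, 5' probe: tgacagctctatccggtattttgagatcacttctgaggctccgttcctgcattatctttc
Vav1, 3' probe: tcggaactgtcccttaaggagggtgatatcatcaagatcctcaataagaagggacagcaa
Vav1, 5' probe: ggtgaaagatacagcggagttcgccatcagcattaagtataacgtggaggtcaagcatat

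The product of Spi1, PU.1, binds purine-rich sites around a GGAA core in the promoters of many myeloid genes. The letters GAGGAAG were searched on both strands in the 250 bases before each transcription start that RefSeq gives on GRCm38.p6. Of the 45 members, 32 were in that table, and 9 of these 32 (28.1%) held the letters, namely C1qc, Clec4d, Fcgr1, Fcgr3, Itgam, Laptm5, Mrc1, Trem2 and Vav1. Over all 27025 genes in the table, 12.0% held them in a window of the same length. Such a match is a description of the letters and not a binding site. The windows of Fcgr1 (chr3:96293970-96294219, reverse strand), Itgam (chr7:128062390-128062639, forward strand) and Laptm5 (chr4:130913066-130913315, forward strand) are printed because these 3 genes both held the letters and rose with Xpo5 siRNA in the test with the replicate block described next. The match is in capitals, on the strand of the gene for Itgam and as its reverse complement for the other two. It begins 84 bases before the start of Itgam, 56 before that of Fcgr1 and 39 before that of Laptm5.
Fcgr1: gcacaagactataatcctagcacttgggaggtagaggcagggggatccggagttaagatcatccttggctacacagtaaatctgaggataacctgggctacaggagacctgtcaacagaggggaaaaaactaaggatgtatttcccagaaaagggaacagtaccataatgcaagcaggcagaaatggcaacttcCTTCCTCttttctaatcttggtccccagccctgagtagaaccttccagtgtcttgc
Itgam: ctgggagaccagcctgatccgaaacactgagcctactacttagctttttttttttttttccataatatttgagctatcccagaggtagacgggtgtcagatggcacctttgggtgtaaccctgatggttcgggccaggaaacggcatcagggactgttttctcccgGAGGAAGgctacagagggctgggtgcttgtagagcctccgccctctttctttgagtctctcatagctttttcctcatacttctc
Laptm5: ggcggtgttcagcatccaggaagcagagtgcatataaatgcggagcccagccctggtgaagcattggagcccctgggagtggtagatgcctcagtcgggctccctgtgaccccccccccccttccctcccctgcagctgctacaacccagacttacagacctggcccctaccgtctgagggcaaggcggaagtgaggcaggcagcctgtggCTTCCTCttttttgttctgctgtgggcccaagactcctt

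As a group, the members stood higher with Xpo5 siRNA than with control siRNA. The difference was above 0 for 39 of the 40 members tested, with Coro1a the exception, and its median was 0.65 on the log2 scale against 0.02 over all 13915 genes tested. It ranged from -0.08 for Coro1a to 1.20 for Ncf1. The median was 0.51 in experiment 1 and 0.79 in experiment 2. Of the 39 members with a value on every array, 37 were higher with Xpo5 siRNA in both experiments, the others being Coro1a and Clec7a, against 38.6% of all genes. The groups did not overlap, with Xpo5 siRNA higher, for 27 of 40 members, against 26.0% of all genes. When arrays were scaled to their medians instead, that count was 15 of 40, against 14.6% of all genes.

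None of the 40 members passed the limma test of the siRNAs in either direction at an adjusted p of 0.05, in which 0.0144% of all genes were called higher and 0.00719% lower. The smallest adjusted p of a member was 0.147. At an unadjusted p under 0.05, 15 members (37.5%) were higher and 0 lower, against 9.38% of all genes higher. In the fit that adds the replicate number as a block, and so compares the siRNAs inside each experiment, 11 members (27.5%) rose, against 3.12% of all genes called higher there. These were Adgre1, Aif1, C1qa, C1qb, Cd48, Ctss, Cybb, Fcgr1, Itgam, Laptm5 and Ncf4, at adjusted p values of 0.0438 to 0.0498. Values from that fit are termed blocked and the others unblocked. The block leaves 1 residual degree of freedom among 4 arrays. Across the genes tested the deviations of same-numbered arrays from their group means correlated at 0.451, a description of genes that are not independent.

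The 4 arrays also differed by experiment, and in the same order for most members. Averaged over the 39 members with a value on every array, and relative to each gene's own mean, the signal was -0.59 on the control array of experiment 2, -0.02 on the control array of experiment 1, 0.14 on the Xpo5 siRNA array of experiment 2 and 0.48 on the Xpo5 siRNA array of experiment 1. The Xpo5 siRNA array of experiment 1 was the highest and the control array of experiment 2 the lowest for 35 of 39 members, the exceptions being C1qb, Clec7a, Coro1a and Ncf1, against 15.5% of all genes. Those arrays share slide 1 and the other two share slide 2. The median siRNA difference of the members was 1.05 within slide 1 and 0.10 within slide 2. Within slide 2, 28 of 40 members were higher with Xpo5 siRNA, against 46.9% of all genes. On each slide the siRNAs come from different experiments, so that these values also hold the gap between the experiments. Without the control array of experiment 2 the median siRNA difference of the members was 0.32, and without the control array of experiment 1 it was 0.92. In a bulk RNA sample, fewer cells of a type and less RNA per cell cannot be told apart.

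**Figure D1:**
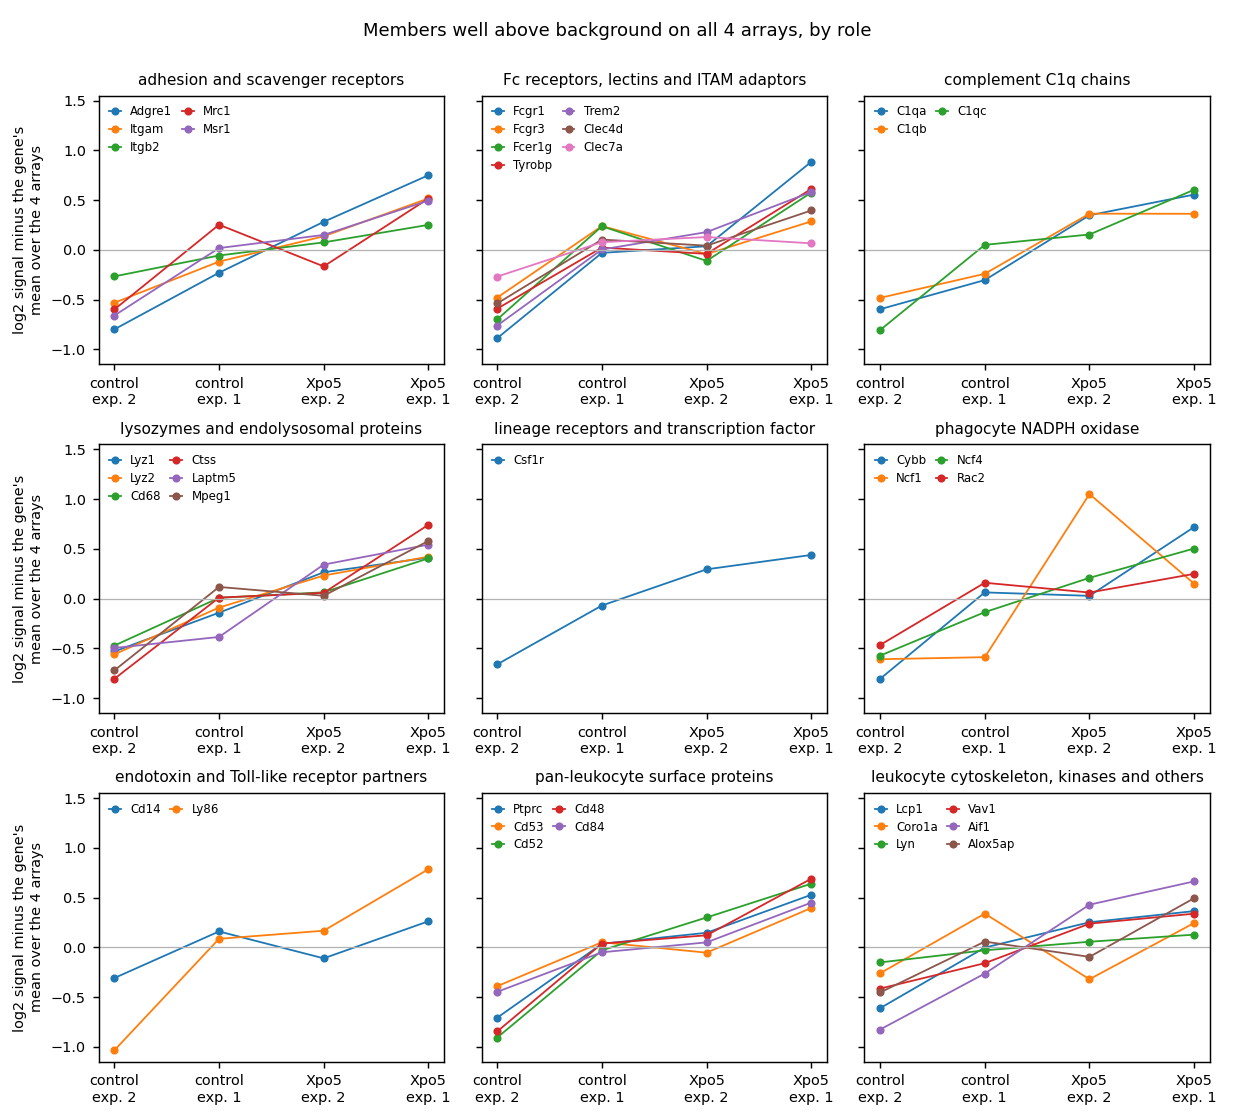
Log2 signal of the 39 members well above background on all 4 arrays, each minus its own mean over the arrays, in 9 panels by role. The x axis lists the arrays by siRNA and experiment, each point is 1 array and each line 1 gene; most lines climb from the control array of experiment 2 to the Xpo5 siRNA array of experiment 1, while Coro1a, Ncf1 and Clec7a follow other orders.

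**Figure D2:**
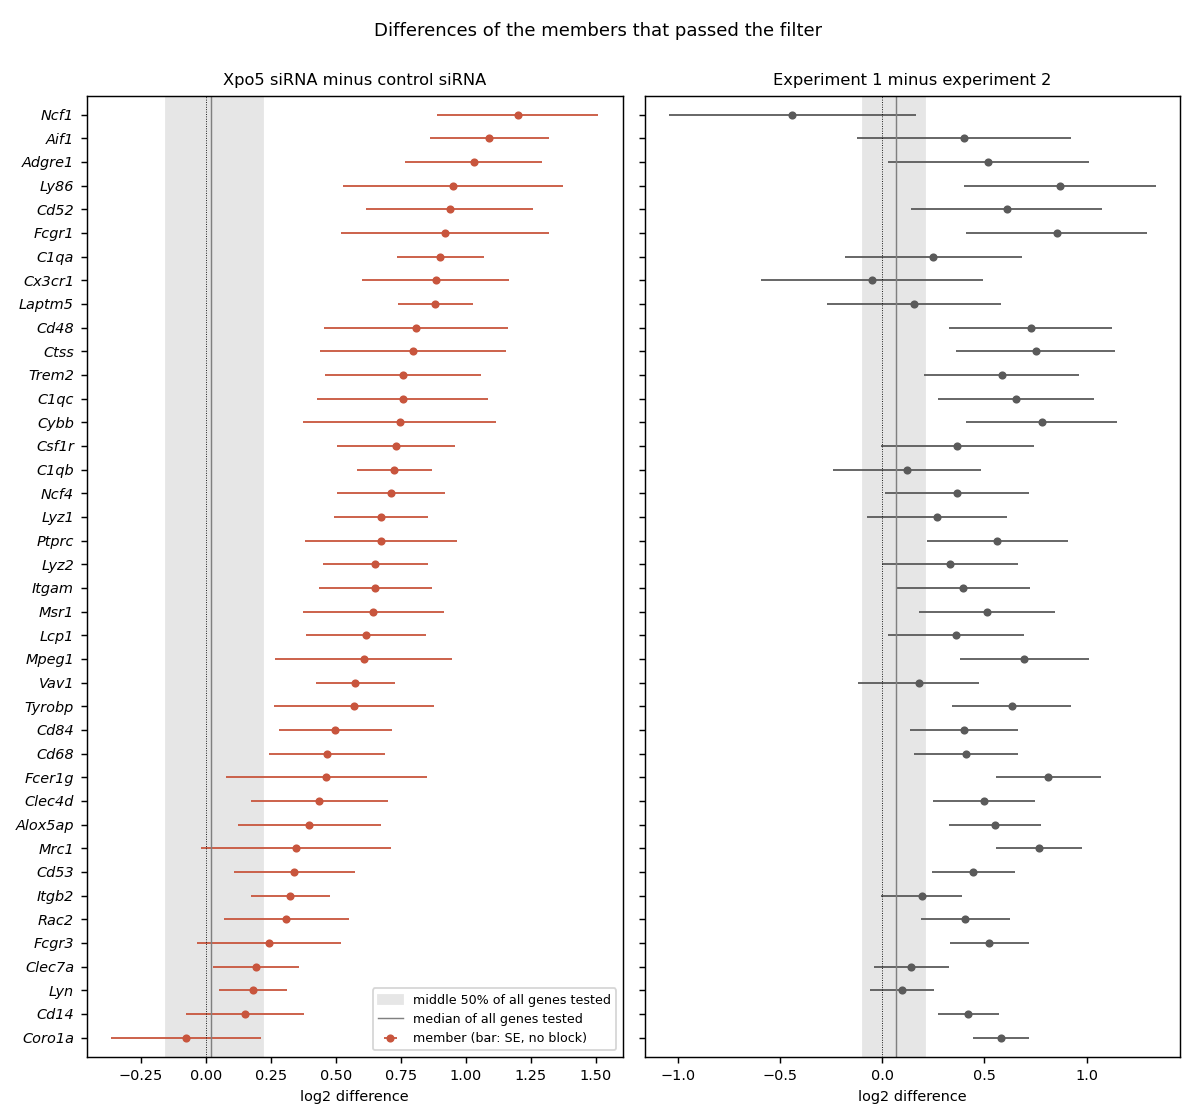
Log2 differences of the 40 members tested, sorted by the difference between the siRNAs (left), with the difference between the experiments for the same genes on the right. Points are fitted differences, bars are their SE without a block (2 arrays per group, 3 arrays in all for Cx3cr1), and the grey band and line are the middle 50% and the median of all genes tested; 39 of 40 points lie above 0 on the left.

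Among the adhesion and scavenger receptors, all 5 members tested were higher with Xpo5 siRNA, by a median of 0.64, and Adgre1 and Itgam rose in the test with the block. Adgre1 encodes the adhesion receptor that is the standard surface marker of mouse macrophages. In experiments 1 and 2, the order in which every pair of values is given from here on, it read -0.77 and -1.34 on the control arrays and 0.21 and -0.26 on the Xpo5 siRNA arrays. The Adgre1 groups did not overlap, and the difference was 1.03 ± 0.26 (SE, from 2 arrays in each group, limma adjusted p = 0.21 unblocked and 0.0438 blocked). Itgam, the alpha chain of the complement receptor integrin of myeloid cells, read -4.50 and -4.91 on the control arrays and -3.86 and -4.24 on the Xpo5 siRNA arrays, at 0.65 ± 0.22 (limma adjusted p = 0.283 unblocked and 0.048 blocked). Its difference was nearly the same in both experiments, at 0.64 and 0.67.

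The beta chain of the leukocyte integrins, Itgb2, which pairs with Itgam, read -2.53 and -2.74 on the control arrays and -2.22 and -2.39 on the Xpo5 siRNA arrays. Its groups did not overlap and differed by 0.32 ± 0.15. Msr1, a scavenger receptor for modified lipoproteins, read -2.44 and -3.12 on the control arrays and -1.96 and -2.31 on the Xpo5 siRNA arrays, also with no overlap and with a difference of 0.64 ± 0.27. The mannose receptor gene Mrc1 read -3.68 and -4.53 on the control arrays and -3.42 and -4.10 on the Xpo5 siRNA arrays. For Mrc1 it was the experiments and not the siRNA groups that did not overlap, with both arrays of experiment 1 above both of experiment 2. Itgax, the alpha chain of the integrin best known from dendritic cells, was well above background on 2 of 4 arrays, both of experiment 2, and was not tested.

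The Fc receptors, C-type lectins and their adaptors had 7 of 8 members tested, all higher with Xpo5 siRNA by a median of 0.46, and Fcgr1 rose in the test with the block. Fcgr1, the high-affinity receptor for immunoglobulin G, read 0.77 and -0.09 on the control arrays and 1.68 and 0.83 on the Xpo5 siRNA arrays. The groups did not overlap, and the difference was 0.92 ± 0.40 (SE, limma adjusted p = 0.38 unblocked and 0.0438 blocked). Trem2, a lipid-sensing receptor that signals through Tyrobp, read 0.78 and 0.02 on the control arrays and 1.36 and 0.96 on the Xpo5 siRNA arrays, and its groups did not overlap either. Their difference was 0.76 ± 0.30. For the other 5 the ranges of the siRNA groups met.

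Tyrobp, the ITAM adaptor of Trem2 and of other myeloid receptors, read 1.29 and 0.67 on the control arrays and 1.88 and 1.22 on the Xpo5 siRNA arrays. Fcer1g, the common gamma chain that serves the activating Fc receptors, read 1.70 and 0.76 on the control arrays and 2.03 and 1.35 on the Xpo5 siRNA arrays. Fcgr3, a low-affinity activating receptor for immunoglobulin G, read -1.09 and -1.80 on the control arrays and -1.04 and -1.37 on the Xpo5 siRNA arrays. For these 3 genes each array of experiment 1 was above each of experiment 2, and the siRNA differences were 0.57 ± 0.31, 0.46 ± 0.39 and 0.24 ± 0.28. The lectin gene Clec4d read 0.77 and 0.13 on the control arrays and 1.06 and 0.71 on the Xpo5 siRNA arrays, again with both arrays of experiment 1 above both of experiment 2. Clec7a, the receptor for fungal beta-glucan, read -3.66 and -4.00 on the control arrays and -3.67 and -3.61 on the Xpo5 siRNA arrays. Its siRNA difference was -0.01 in experiment 1 and 0.40 in experiment 2. The inhibitory receptor Fcgr2b was well above background on 1 array, and its second probe, printed up to 10 times per array, was so on none.

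The 3 chains of complement C1q, which macrophages secrete and which tag immune complexes and dying cells, were all higher with Xpo5 siRNA and had no overlap between the groups. C1qa read -0.77 and -1.06 on the control arrays and 0.09 and -0.12 on the Xpo5 siRNA arrays, at 0.90 ± 0.17 (limma adjusted p = 0.157 unblocked and 0.0438 blocked). C1qb read -0.64 and -0.88 on the control arrays and -0.04 and -0.04 on the Xpo5 siRNA arrays, at 0.72 ± 0.15 (limma adjusted p = 0.165 unblocked and 0.0498 blocked). C1qc read 0.65 and -0.21 on the control arrays and 1.20 and 0.75 on the Xpo5 siRNA arrays and differed by 0.76 ± 0.33. The A and B chains rose in the test with the block, and the C chain had an adjusted p of 0.058 there in limma. C1qb had equal values on the Xpo5 siRNA arrays to 2 decimals, so that it did not share the gap between the experiments on them.

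Lysozymes and endolysosomal proteins had 6 of 6 members higher with Xpo5 siRNA, by a median of 0.66, and Ctss and Laptm5 rose in the test with the block. Lyz2, the lysozyme of macrophages and neutrophils, read 5.33 and 4.86 on the control arrays and 5.84 and 5.65 on the Xpo5 siRNA arrays, with a difference of 0.65 ± 0.20 and no overlap. Lyz1, its near-identical neighbour, read 2.68 and 2.29 on the control arrays and 3.24 and 3.09 on the Xpo5 siRNA arrays and differed by 0.67 ± 0.18. The Lyz1 probe is annotated in the files to transcripts of both lysozyme genes, so the split between them is uncertain.

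Ctss, cathepsin S, a protease of antigen-presenting cells, read 1.81 and 0.99 on the control arrays and 2.54 and 1.85 on the Xpo5 siRNA arrays, at 0.80 ± 0.36 (limma adjusted p = 0.393 unblocked and 0.0448 blocked). Laptm5, a lysosomal membrane protein of blood cells, read -3.44 and -3.55 on the control arrays and -2.51 and -2.71 on the Xpo5 siRNA arrays, at 0.88 ± 0.14 (limma adjusted p = 0.147 unblocked and 0.0438 blocked). Both genes had no overlap between the siRNA groups, and Laptm5 had the smallest adjusted p of the 40 members without the block. Cd68, a lysosomal glycoprotein of phagocytes, read -0.46 and -0.94 on the control arrays and -0.07 and -0.41 on the Xpo5 siRNA arrays, and its groups did not overlap. Mpeg1, a pore-forming protein of the phagosome, read 0.38 and -0.46 on the control arrays and 0.84 and 0.29 on the Xpo5 siRNA arrays. The siRNA differences of Cd68 and Mpeg1 were 0.47 ± 0.22 and 0.61 ± 0.34, and Mpeg1 was among the genes whose experiments did not overlap.

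The lineage receptors gave 2 tested genes of 3. Csf1r, the receptor for colony-stimulating factor 1 on which macrophages depend for survival, read -0.57 and -1.17 on the control arrays and -0.07 and -0.21 on the Xpo5 siRNA arrays. Its groups did not overlap and differed by 0.73 ± 0.23 (limma adjusted p = 0.265 unblocked and 0.0653 blocked). Cx3cr1, the fractalkine receptor of monocytes and microglia, had an outlying spot on the Xpo5 siRNA array of experiment 1, which the fit drops. On the other arrays it read -3.42 and -3.94 (control siRNA) and -2.80 (Xpo5 siRNA, experiment 2), at 0.88 ± 0.28 over those 3 arrays. Spi1 was well above background only on the Xpo5 siRNA array of experiment 1, so that no fold is given for it and it was not tested.

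The phagocyte NADPH oxidase, which assembles at the phagosome from membrane and cytosolic subunits, had 4 of 4 genes higher with Xpo5 siRNA. The membrane subunit Cybb read -4.06 and -4.93 on the control arrays and -3.40 and -4.09 on the Xpo5 siRNA arrays, at 0.75 ± 0.37 (limma adjusted p = 0.433 unblocked and 0.046 blocked). Of the cytosolic subunits, Ncf4 read -0.93 and -1.36 on the control arrays and -0.29 and -0.58 on the Xpo5 siRNA arrays, at 0.71 ± 0.21 (limma adjusted p = 0.241 unblocked and 0.0464 blocked). Both rose in the test with the block, although for Cybb the control array of experiment 1 lay just above the Xpo5 siRNA array of experiment 2.

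Ncf1, the organiser subunit, read -4.64 and -4.66 on the control arrays and -3.90 and -3.00 on the Xpo5 siRNA arrays, and its highest value was on the Xpo5 siRNA array of experiment 2. The difference of 1.20 ± 0.31 was the largest fitted among the 40 members, but its second probe gave 0.68. Rac2, the leukocyte GTPase that activates the oxidase, read -1.63 and -2.26 on the control arrays and -1.54 and -1.73 on the Xpo5 siRNA arrays, a difference of 0.31 ± 0.24. Rac2 again had both arrays of experiment 1 above both of experiment 2.

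Of the partners of endotoxin and Toll-like receptors, Cd14, the coreceptor for lipopolysaccharide, read 0.97 and 0.50 on the control arrays and 1.07 and 0.70 on the Xpo5 siRNA arrays. Its siRNA difference of 0.15 ± 0.23 was the second lowest of the 40, and its experiments did not overlap. Ly86, the secreted partner of Cd180, read -1.34 and -2.46 on the control arrays and -0.64 and -1.26 on the Xpo5 siRNA arrays. The Ly86 groups did not overlap and differed by 0.95 ± 0.42 (limma adjusted p = 0.388 unblocked and 0.0522 blocked). Cd180 itself, a receptor related to the Toll-like family, was well above background only on the Xpo5 siRNA array of experiment 1, and it was not tested.

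All 5 pan-leukocyte surface genes were higher with Xpo5 siRNA, by a median of 0.67, and 4 of the 5 had no overlap between the groups. Ptprc, the common leukocyte phosphatase, read -2.75 and -3.49 on the control arrays and -2.25 and -2.64 on the Xpo5 siRNA arrays and differed by 0.67 ± 0.29. Its probe was printed 10 times on each array, and those spots had an SD of 0.084 to 0.156 within an array, while the array means ran from -3.49 to -2.25. Cd48, a ligand of the SLAM family on leukocytes, read -2.94 and -3.82 on the control arrays and -2.28 and -2.85 on the Xpo5 siRNA arrays, at 0.81 ± 0.35 (limma adjusted p = 0.381 unblocked and 0.0484 blocked). Cd52, a small glycoprotein anchored in the leukocyte membrane, read 0.52 and -0.36 on the control arrays and 1.19 and 0.85 on the Xpo5 siRNA arrays, with a difference of 0.94 ± 0.32. Cd48 rose in the test with the block and Cd52 did not, at 0.0552.

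Cd84, another SLAM family receptor, read -3.31 and -3.71 on the control arrays and -2.82 and -3.22 on the Xpo5 siRNA arrays, with a difference of 0.50 ± 0.22 that was 0.50 in each experiment. The tetraspanin gene Cd53 read -3.94 and -4.39 on the control arrays and -3.60 and -4.05 on the Xpo5 siRNA arrays. Its siRNA difference was 0.34 ± 0.23, and its experiments, not its siRNA groups, were without overlap.

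Of the leukocyte cytoskeleton, kinases and other genes, 5 of 6 tested were higher with Xpo5 siRNA, and Aif1 rose in the test with the block. Aif1, an actin-binding protein used as a marker of macrophages and microglia, read -1.81 and -2.37 on the control arrays and -0.89 and -1.12 on the Xpo5 siRNA arrays, at 1.09 ± 0.23 (limma adjusted p = 0.174 unblocked and 0.0438 blocked). The second Aif1 probe gave 1.03. Lcp1, the actin-bundling plastin of leukocytes, read -0.52 and -1.13 on the control arrays and -0.16 and -0.27 on the Xpo5 siRNA arrays, and Vav1, a guanine nucleotide exchange factor of blood cells, read -3.81 and -4.06 on the control arrays and -3.31 and -3.41 on the Xpo5 siRNA arrays. Neither had overlapping groups, and they differed by 0.62 ± 0.23 and 0.58 ± 0.15.

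Lyn, a Src family kinase, read 0.71 and 0.58 on the control arrays and 0.86 and 0.79 on the Xpo5 siRNA arrays, a narrow range with a difference of 0.18 ± 0.13 and no overlap. Alox5ap, the partner of 5-lipoxygenase in leukotriene synthesis, read -0.43 and -0.94 on the control arrays and 0.01 and -0.58 on the Xpo5 siRNA arrays and differed by 0.40 ± 0.28. Coro1a, a coronin that binds actin at the phagosome, read -0.74 and -1.34 on the control arrays and -0.84 and -1.40 on the Xpo5 siRNA arrays. It was the 1 member of 40 with a lower signal with Xpo5 siRNA, at -0.08 ± 0.29, while both arrays of experiment 1 were above both of experiment 2. That sign was not stable, since the difference was 0.01 with normexp background correction and 0.04 over the mean of its probes. Fgr, another Src family kinase, was well above background on no array.

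The siRNA difference was larger in experiment 2 than in experiment 1 for most members. The difference in experiment 1 minus that in experiment 2 had a median of -0.24 over 39 members, against -0.03 over all genes. It was above 0 for 5 members, Alox5ap, Cd53, Cd84, Laptm5 and Tyrobp, against 44.9% of all genes. Each experiment holds 1 array per siRNA, so that this gap was not tested for single genes. The gap is the same contrast as slide 1 minus slide 2, and it cannot be told apart from a difference between the slides.

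**Figure D3:**
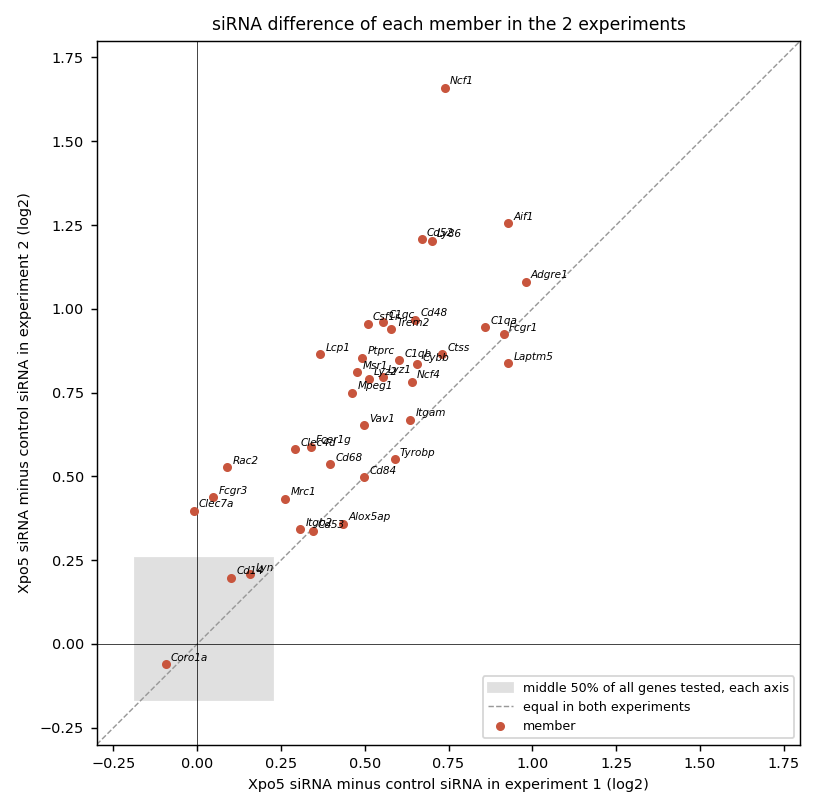
Xpo5 siRNA minus control siRNA on the log2 scale in experiment 1 (x axis) and in experiment 2 (y axis) for the 39 members with a value on every array, 1 point per gene. The grey box is the middle 50% of all genes tested on each axis and the dashed line marks equal differences; most members lie above the line and outside the box, and Coro1a lies inside it below 0 on both axes.

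The second comparison asked how far the members differed between the independent experiments. The difference of experiment 1 minus experiment 2 had a median of 0.43 over the 40 members, against 0.07 over all genes. The median was 0.58 between the control arrays and 0.35 between the Xpo5 siRNA arrays. Of 39 members, 36 were higher in experiment 1 with both siRNAs, the exceptions being C1qb, Clec7a and Ncf1, against 45.7% of all genes. The experiments did not overlap, with experiment 1 higher, for 12 of 40 members, against 25.5% of all genes, and for 25 of 40 with median scaling, against 36.5%. With 1 array left out in turn the median was 0.12 without the control array of experiment 2, 0.27 without the Xpo5 siRNA array of experiment 1, 0.68 without the control array of experiment 1 and 0.75 without the Xpo5 siRNA array of experiment 2. The members without overlap then numbered 36 of 39 without the control array of experiment 1, against 40.8% of all genes, and 40 of 40 without the Xpo5 siRNA array of experiment 2, against 44.9%. They numbered 12 of 40 without the control array of experiment 2, against 43.3%, and 12 of 40 without the Xpo5 siRNA array of experiment 1, against 43.2%.

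Not 1 member passed the limma test of the experiments. Over all genes 0% were called higher in experiment 1, and 0% with the siRNA as a block, where the smallest adjusted p over all genes was 0.116. Without that block 1057 genes had an unadjusted p under 0.05 in either direction. At that level 5 members (12.5%) were higher in experiment 1, against 4.07% of all genes, namely Cd14, Coro1a, Fcer1g, Fcgr3 and Mrc1. Their differences were 0.42 ± 0.15, 0.58 ± 0.14, 0.81 ± 0.26, 0.52 ± 0.19 and 0.77 ± 0.21 (SE, from 2 arrays in each experiment, limma adjusted p = 0.654 for Coro1a, and no lower for another member). Their siRNA differences ran from -0.08 to 0.46, all below the members' median of 0.65. In the fit without a block an siRNA difference counts as spread inside each experiment. Genes picked by its p are therefore chosen in part for a small siRNA difference. The largest gaps were those of Ly86 at 0.87 ± 0.47 and Fcgr1 at 0.85 ± 0.44, whose siRNA differences were also large.

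The place of the probe in the transcript moved with the gap between the experiments. Of the members, 15 had 2 probes well above background on all 4 arrays at different places of the gene. At the probe nearer the 3' end the median gap between the experiments was 0.40, and at that nearer the 5' end it was 0.05, with the 3' value the larger in 12 of 15. Over the 5656 genes with such a pair the medians were 0.09 and -0.12, and the 3' value was the larger in 73.1%. The log2 signal of the 3' probe minus that of the 5' probe of a gene had medians over these genes of 1.77 and 1.65 on the arrays of experiment 1 and 1.45 and 1.45 on those of experiment 2, with control and Xpo5 siRNA in that order. Over the 15 members the medians of this log2 difference were 2.16 and 2.08 in experiment 1 and 1.77 and 1.72 in experiment 2. A difference between probes on 1 array also holds the probes' own brightness, so that only its shift between arrays is read here. Such 3' to 5' comparisons are in common use as a measure of RNA integrity and labelling, and the part of either in the gap between the experiments was not tested.

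For the siRNA difference the pattern was another one. Its median over the same 15 members was 0.62 at the 3' probe and 0.80 at the 5' probe, with the 3' value the larger in 1 of 15, Aif1, against 44.0% of all genes with a pair, whose medians were 0.00 and 0.04. The members' median was above that of all genes with a pair at both ends, for the siRNA difference and for the gap between the experiments alike. For Lyz2 the siRNA difference was 0.65 and 1.07 at the 3' and 5' probes and the gap between experiments was 0.33 and -0.27. For Vav1, whose probes are printed above, the siRNA difference was 0.58 and 1.08 and the gap 0.18 and -0.18. The Coro1a probes gave siRNA differences of -0.08 and 0.16 and gaps of 0.58 and -0.01.

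**Figure D4:**
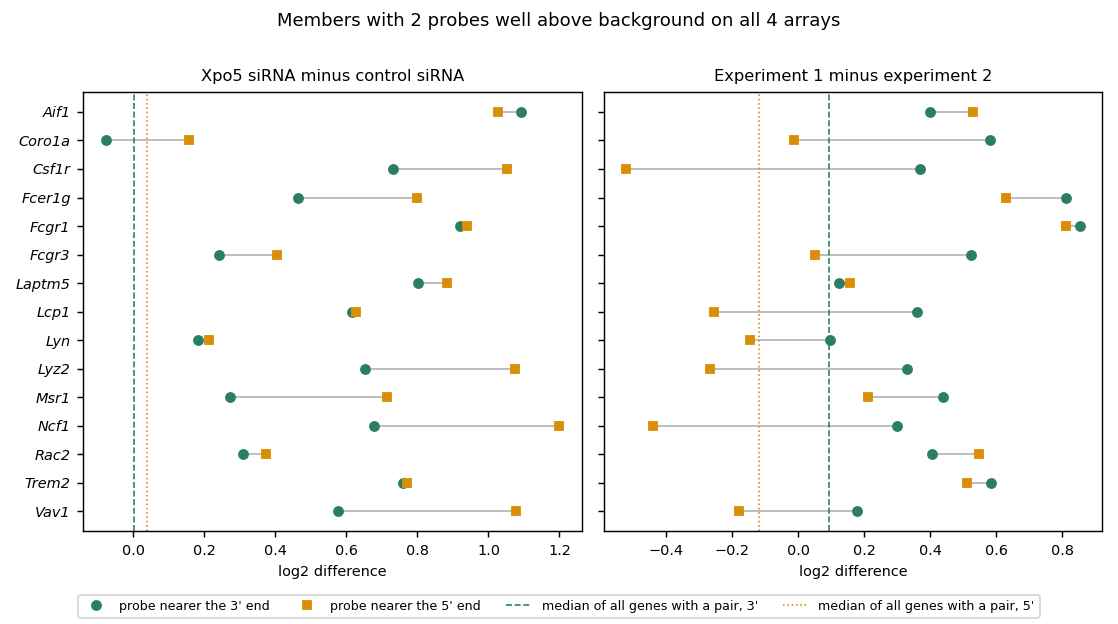
Log2 differences at the probe nearer the 3' end (green circles) and that nearer the 5' end (orange squares) for the 15 members with 2 such probes, for the siRNA difference (left) and the difference between the experiments (right). Vertical lines are the medians over all 5656 genes with a probe pair; on the right most orange squares lie left of the green circles, and on the left all but Aif1 have the orange square further right.

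Genes with a like role outside the set were taken from lists. Of 30 genes for macrophage regulators and signalling, 27 were tested, and 23 were higher with Xpo5 siRNA, with a median of 0.49. Without the block 0 passed, and with it 5 did. Over all genes tested 53% were higher with Xpo5 siRNA, and 3.12% were called higher with the block. Nckap1l, the blood cell form of a WAVE complex subunit, Il34, a second ligand of Csf1r, and Tlr4, the endotoxin receptor, differed by 0.91 ± 0.19, 0.78 ± 0.16 and 0.68 ± 0.15, and each passed with the block. The 4 genes of this list that were lower, named after their values were seen, were Cebpa, Csf1, Ly96 and Plcg2. They differed by -0.06 ± 0.18, -0.03 ± 0.20, -0.13 ± 0.15 and -0.05 ± 0.15, with overlapping siRNA groups. Of 30 genes for macrophage receptors and antigen presentation, 19 were tested, and 15 were higher, with a median of 0.72. Without the block 0 passed, and with it 5 did. Of the 19, 17 were well above background on all 4 arrays. The others passed the filter on fewer arrays, which can be those of the siRNA group where the gene is higher, and these counts include them. Ms4a6c, Stab1 and Pld4, all expressed in macrophages, differed by 0.97 ± 0.22, 0.74 ± 0.17 and 0.62 ± 0.14, and are among the 4 with the smallest p of that list. Ms4a6c passed with the block (limma adjusted p = 0.0457), while Stab1 and Pld4 did not, at 0.0587 and 0.0517 in limma. The 4 genes of the receptor and antigen presentation list that were lower, also named after their values were seen, were Cd74, Mertk, Pf4 and Spp1. They differed by -0.08 ± 0.35, -0.12 ± 0.13, -0.09 ± 0.25 and -0.42 ± 0.13. Of these Mertk and Spp1 had no overlap between the groups and Spp1 had an unadjusted p under 0.05 in limma. Of the 15 higher genes 14 had no overlap and 9 had such a p. Over all genes 26% had no overlap with Xpo5 siRNA higher, and 9.38% were higher at such a p. Spp1, the gene of osteopontin, read 5.51 and 5.49 on the control arrays and 5.01 and 5.16 on the Xpo5 siRNA arrays. Spp1 made up most of the summed signal of the list on every array. The log2 of that sum was lower with Xpo5 siRNA, at 5.71 and 5.64 on the control arrays and 5.37 and 5.43 on the others. It therefore mainly shows Spp1, while 15 of the 19 genes tested were higher. In the same list 9 genes were well above background on no array, among them Cd163 and Timd4 of tissue macrophages and Ccr2 of monocytes.

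Markers of other cell types were counted beside the members, and their part in the members' differences was not tested. Of 10 T cell genes 7 were well above background on no array, and the 3 tested had a median siRNA difference of -0.05. Of 7 B cell genes 5 were well above background on no array, and of the 2 tested Blnk stood at 0.60 ± 0.20. The neutrophil genes S100a8, Elane, Camp, Ltf, Ngp and Csf3r were well above background on no array, and of the 2 tested Mpo stood at 0.34 ± 0.16, while S100a9 had values from -8.56 to -3.18 with overlapping siRNA groups. The 3 T cell genes tested were dim, at -4.85 to -3.98. Their log2 summed signal was -2.65 and -2.77 on the control arrays and -2.66 and -2.79 on those with Xpo5 siRNA. For the pan-leukocyte members the log2 summed signal was 0.91 and 0.09 on the control arrays and 1.54 and 1.18 on those with Xpo5 siRNA. Each sum can be compared between arrays but not with the other sum.

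Few genes of the other lists could be tested, and 2 of them passed with the block, where 3.12% of all genes were called higher. The NK cell list had 2 of 7 tested, the mast cell list 2 of 7, the dendritic cell list 3 of 7 and the megakaryocyte list 3 of 6, and 0 of these passed with or without the block. In that order, 2 of 2, 1 of 2, 3 of 3 and 2 of 3 were higher with Xpo5 siRNA, against 53% of all genes. The median siRNA differences of these lists were 0.79, 0.08, 0.51 and 0.27. Of the NK cell genes 0 were well above background on all 4 arrays. Epor, the erythropoietin receptor and the 1 gene tested of the erythroid list, differed by 0.73 ± 0.18, and passed with the block. In the endothelial list Pecam1, Cdh5 and Tie1 were well above background on no array. Kdr, a receptor for vascular endothelial growth factor, differed by 1.20 ± 0.17 and passed with the block, Tek by 0.64 ± 0.14, and Emcn by -0.33 ± 0.15. The 14 fibroblast genes had a median siRNA difference of 0.06, with 11 of 14 higher, against 53% of all genes. Their median gap between the experiments was 0.24, and 0 passed.

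The genes whose 4 values lay nearest to the mean pattern of the members, by the sum of squared differences after centring on each gene's mean, were Ptpn18, U90926, Tmem243, Trim34a and Clec11a, out of 1008 candidates outside the set with a spread at least that of the members' mean. Ptpn18 encodes a protein tyrosine phosphatase and read -0.78 and -1.34 on the control arrays and -0.27 and -0.57 on the Xpo5 siRNA arrays. U90926 read 0.72 and 0.19 on the control arrays and 1.30 and 0.93 on the Xpo5 siRNA arrays, and Clec11a, a secreted C-type lectin domain protein, read -1.65 and -2.15 on the control arrays and -1.10 and -1.38 on the Xpo5 siRNA arrays. Their siRNA differences were 0.64, 0.66 and 0.66, and those of Tmem243 and Trim34a were 0.66 and 0.63. With 4 arrays such likeness describes these samples.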

How the data were processed

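The labels describe 4 RNA samples, each on its own Agilent array of 1 colour. Spot intensity in the deposited scanner files was, per the file headers, extracted and spatially detrended by Agilent's software (version 10.5.1.1). Log2 values deposited as a series table equal the log2 processed signal plus 1 constant per array.

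Log2 processed signals were scaled to each array's 75th percentile. Outlier and control spots were left out, and spots of a probe averaged. Names came from RefSeq (GRCm38.p6, names and promoters only). Each gene was represented by its brightest probe. Differences between siRNAs and between experiments were tested with limma 3.58.1 (lmFit, eBayes; R 4.3.3), two-sided, no block, Benjamini-Hochberg over all 13915 genes tested, and checked on simulated data. The replicate number as a block, from the series' 2 experiments, was an alternative, with other scalings, filters, probes and left-out arrays.

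Members, lists and the rule for named genes (members with values on all arrays, up to 4 genes per list, 5 nearest genes) were chosen with earlier results of these data known. The 3' and 5' probe comparison was added after seeing the data. No genome or protein sequence was used here. Of the genes that rule names, 2 are not reported here.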

Additional observations from a re-analysis of the deposited data

Results flagged for a closer look

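Clec7a, the beta-glucan receptor, had an siRNA difference near 0 in experiment 1, at -0.01, and of 0.40 in experiment 2, so that the first minus the second was -0.41. This was not the largest such gap, as the lowest value among 39 members was -0.92. Each experiment had 1 array per siRNA, and the difference between the experiments was not tested. It cannot be told apart from a difference between the slides.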

How the results depend on the processing

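The median siRNA difference of the members kept its sign under all alternatives run, at 0.32 to 0.92 with 1 array left out. Relative to the median of all genes it was 0.63 as reported, 0.45 with normexp and 0.59 with quantile normalization. Median scaling subtracts another constant from each array, so that this relative value stays the same by construction. It moved the median of all genes from 0.02 to -0.09. The median gap between the experiments was 0.12 to 0.75 with 1 array left out, and 0.051 at the 5' probes of 15 members. Members whose siRNA groups did not overlap numbered 27 as reported, 15 with median scaling, where 14.6% of all genes did so, 15 with the deposited table, where 14.1% did so, and 27 to 39 with 1 array left out, where 37.4% to 43.8% did so. For the experiments the counts were 12 as reported, 25 with median scaling, where 36.5% of all genes did so, 25 with the deposited table, where 36.6% did so, and 12 to 40 with 1 array left out, where 40.8% to 44.9% did so. The deposited values have the same median, 5.33, on every array. They are thus close to median scaling and no separate check beside it.

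Members called between the siRNAs numbered 0, and 11 with the replicate block, and 0 in every other alternative run. Over all genes 3 were called as reported, 8 with median scaling, 8 with the deposited table, 6 with the slide as a block, 1 with probes well above background on all arrays, 1 with the mean of the probes, 0 without a filter, 615 with the replicate block and 0 to 87 with 1 array left out, in limma. Between the experiments 0 genes were called as reported, 5 without a filter and 0 to 1 with 1 array left out, and 1057 had an unadjusted p under 0.05. The causes of these shifts were not tested.

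Signs of single members turned as follows. Coro1a stood at 0.012 with normexp and 0.040 with the mean of its probes between the siRNAs. Between the experiments, with the mean of the probes, Csf1r stood at -0.0056, Itgam at -0.017, Lyn at -0.025 and Vav1 at -0.0010. Cx3cr1, which lacks 1 array, stood at 0.088 with quantile normalization, 0.10 with median scaling, 0.52 with the siRNA as a block and 5.57 in the deposited table, which keeps its outlying spot. With 1 array left out, these siRNA differences ran from below to above 0: Cd14 -0.084 to 0.38, Coro1a -0.38 to 0.22, Fcer1g -0.0049 to 0.93, Fcgr3 -0.12 to 0.60, Mrc1 -0.078 to 0.77, Rac2 -0.0046 to 0.62. So did these gaps between the experiments: Adgre1 -0.022 to 1.06, Aif1 -0.23 to 1.03, C1qa -0.22 to 0.72, C1qb -0.30 to 0.54, Clec7a -0.057 to 0.34, Csf1r -0.11 to 0.85, Laptm5 -0.31 to 0.62, Lcp1 -0.071 to 0.79, Lyn -0.0073 to 0.20, Lyz1 -0.13 to 0.67, Lyz2 -0.066 to 0.73, Ncf1 -1.27 to 0.39, Ncf4 -0.025 to 0.76, Vav1 -0.15 to 0.50, Cx3cr1 -0.62 to 0.52. Most of these low ends came without the control array of experiment 2. Probes near background and 2 arrays per group limit all of these values.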
